A study of Homo sapiens with 4 samples.

Results

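The genes examined are 10 AP-1 and immediate early genes, namely FOS, FOSL1, FOSL2, JUN, JUNB, JUND, ATF3, EGR1, IER3 and MAFF, chosen by gene symbol. Of these 10, 9 have a row among the 6828 genes of the table. IER3, which encodes a regulator of apoptosis rather than a transcription factor, has no row and was not analysed here. RNA-seq had been performed on A549 cells, an epithelial cell line from a human lung adenocarcinoma, 72 h after infection with lentiviruses. One group of 2 libraries carried a control shRNA (shctrl) and the other group of 2 carried an shRNA against the long noncoding RNA USP2-AS1 (shUSP2-AS1), so that every library came from infected cells. The study describes the 2 libraries of a group as biological replicates and does not say which of its hairpins against USP2-AS1 was used for RNA-seq.

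AP-1 is a dimer of basic leucine zipper (bZIP) proteins, usually one of the FOS family with one of the JUN family, and it binds the sequence TGANTCA. ATF3 and the small MAF proteins, among them MAFF, carry related zippers. EGR1 is a zinc finger protein. Many of these genes are immediate early genes, which means that growth factors and stress switch them on within minutes through MAP kinases and serum response factor, without new protein synthesis. In epithelial tumour cells AP-1 is known for its targets in growth, invasion and secretion.

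The reads recovered on the listed genes numbered between 10772788 and 14120472 per library, and the replicates of a group differed by more than counting noise. Values are read counts divided by a size factor of the library ("normalized read counts"). Changes are given as log2FC, the log2 fold change of shUSP2-AS1 over shctrl, with its standard error (SE). USP2-AS1 itself was covered by 24 and 22 reads in shctrl against 2 and 7 in shUSP2-AS1, and its log2FC was -2.39 (SE 0.56, limma adjusted p = 0.000597). Its interval overlaps USP2 and other genes on the opposite strand, and whether reads were counted by strand is not given in the sources used here. Of 8 epithelial markers 5 are listed, and they did not move together. KRT8, KRT7 and KRT18 fell, while CLDN4 (log2FC 1.81) and KRT19 (0.75) rose. Their summed level, 168247 to 179356 in shctrl and 106691 to 113273 in shUSP2-AS1, is carried by the first 3. Of 11 markers of blood, fibroblast and endothelial cells only COL1A1 and LUM are listed, and their summed level was 263 to 295 in shctrl and 555 to 634 in shUSP2-AS1. This sum is carried by COL1A1, as LUM had 2 and 1 reads in shctrl and 24 and 18 in shUSP2-AS1. The part of these shifts in the results was not tested. In bulk RNA, fewer cells of a type and less RNA per cell cannot be told apart.

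Knockdown of USP2-AS1 was accompanied by more RNA of most of these genes, but not of all. ATF3, JUNB, FOS, JUN, JUND and EGR1 rose in shUSP2-AS1 cells, by 4.24-fold for ATF3 and 1.31-fold for EGR1 at the ends of the range. FOSL1 and MAFF fell. FOSL2, whose read count was the highest of the 9 in both groups, differed least. A gene was called when it passed an adjusted p of 0.05 and differed at least 2-fold. By that rule 2 of the 9, ATF3 and JUNB, were called higher and 1, MAFF, was called lower. Among all 6812 genes tested 29.7% were called, 16.1% higher and 13.5% lower, so 3 of 9 is near the background. The adjusted p by itself separates nothing here. The table holds genes that had passed the authors' own comparison, and 6811 of the 6812 (100%) also passed an adjusted p of 0.05 in limma. On that criterion alone 7 of the 9 were higher and 2 lower, against 50.6% and 49.4% of the tested genes. The median log2 fold change of the 9 was 0.57, against 0.19 for all tested genes. Changes near 0 are scarce among the listed genes, so the median of all tested genes depends mainly on how many rose and fell. In each of the 9 genes the 2 groups did not overlap, as in 6811 of the tested genes (100%).

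**Figure D1:**
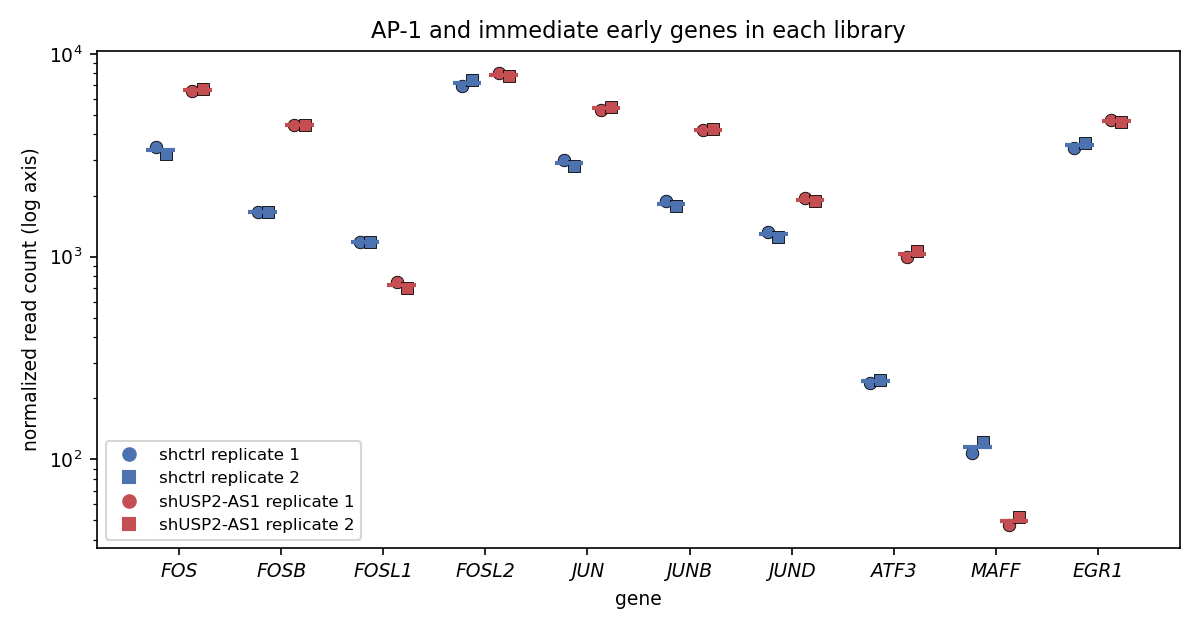
Normalized read count (log axis) of the 9 listed genes and of FOSB in each of the 4 libraries, with a bar at the mean of each group. All genes shown are higher in both shUSP2-AS1 libraries than in both shctrl libraries except FOSL1 and MAFF, and the 2 groups of FOSL2 lie close together.

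The promoters of these genes were read from RefSeq (build GRCh38.p14), from 250 bases before to 50 after the start of each. The table had 10 promoters for 8 of the 10 genes, with 2 each for ATF3 and MAFF and none for FOSL1 and IER3. The site TGACGTCA, which is bound by ATF and CREB proteins and by some AP-1 dimers, was found in the promoter of JUND and in a promoter of MAFF. A wider search for TGACNTCA, which includes TGACGTCA and was added after that result was seen, also found the promoter of JUN and a promoter of ATF3. The 4 sites are shown because these genes encode proteins of the class that binds such sequences, and because JUN, JUND and ATF3 rose while MAFF fell. Each is given 5′ to 3′ on the strand of the gene, with the site in capitals.
JUN: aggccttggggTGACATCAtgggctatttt
JUND: ggccgcccccaTGACGTCAacccacaaggc
ATF3: cacctatgataTGACATCAtatggccactc
MAFF: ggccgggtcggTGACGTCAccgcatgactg
The JUN stretch lies at chr1:58784096-58784125 on the minus strand, with the site starting 67 bases before the start. The JUND stretch lies at chr19:18281804-18281833 on the minus strand, with the site 200 bases before the start. ATF3 has its site 123 bases before one of its 2 starts, at chr1:212565273-212565302 on the plus strand, and its other promoter did not hold it. In MAFF the site is 54 bases before one of its 2 starts, at chr22:38201929-38201958 on the plus strand. On either strand, TGACNTCA was held by 4 of the 10 promoters, by 7.72% of the 35116 promoters in the table and by 6.38% of those of listed genes. For TGACGTCA these were 2 of the 10, 1.85% and 2.81%.

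The EGR1 promoter held a pair of CArG boxes, the site bound by serum response factor (SRF), which no other promoter of these genes held in this window. They are shown because EGR1 is a textbook target of SRF. The first begins 105 bases and the second 83 bases before the start, and the stretches overlap on the plus strand of chr5:138465364-138465393 and chr5:138465386-138465415.
EGR1 first box: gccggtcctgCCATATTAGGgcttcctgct
EGR1 second box: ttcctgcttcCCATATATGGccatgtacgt
CArG boxes were found in 1.29% of all promoters in the table. The AP-1 site TGANTCA occurred in 1 of the 10 promoters, that of FOSL2, as TGACTCA just downstream of the start, and in 7.71% of all promoters. GCGTGGGCG, the site of EGR proteins, occurred in none of the 10 and in 0.795% of all promoters. A match of letters is not evidence of binding, and its absence says only that the letters are not in this window.

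The JUN family gives AP-1 its DNA-binding partner that can also pair with itself. Positions of genes are those of the deposited table, in hg38. JUN, the founding member, is an intronless gene at chr1:58780791-58784047 (ENSG00000177606) on the minus strand. Its normalized read counts were 2982 and 2797 in shctrl against 5279 and 5465 in shUSP2-AS1. Both shUSP2-AS1 libraries were above both controls by far more than the difference between replicates, and the log2FC was 0.89 (SE 0.05, limma adjusted p = 4.65e-11). With 1.86-fold more RNA, JUN stayed just under the fold change of 2. JUNB, which activates some AP-1 sites weakly and restrains others bound by JUN, lies at chr19:12791486-12793315 (ENSG00000171223) on the plus strand. Its counts were 1882 and 1770 in shctrl and 4195 and 4254 in shUSP2-AS1, a log2FC of 1.21 (SE 0.05, limma adjusted p = 1.23e-12). HOOK2 overlaps JUNB on the opposite strand in the annotation (GENCODE release 44) and is not listed. JUND, the member that is usually made steadily in resting cells, lies at chr19:18279694-18281622 (ENSG00000130522) on the minus strand. It had 1329 and 1244 in shctrl against 1938 and 1877 in shUSP2-AS1, and its log2FC of 0.57 (SE 0.06) was less than that of the other two.

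Within a library the ratio of one gene to another does not depend on the scaling of the library. The log2 ratio of JUNB to JUN was -0.66 and -0.66 in shctrl and -0.33 and -0.36 in shUSP2-AS1, so JUNB gained 0.32 on JUN. Against JUND, JUNB gained 0.64. The 3 genes were also compared per kilobase of gene, as shares of their summed level. The share of JUNB was 39.1% ± 0.0595 in control cells and 46.7% ± 0.0780 in knockdown cells (SD, n = 2 each). JUND made up 26.2% and 26.1% in the control libraries and 20.4% and 19.6% after knockdown, and JUN went from 34.8% ± 0.0158 to 33.3% ± 0.540 (SD, n = 2). In the levels of single genes, the groups did not overlap for 6811 of the 6812 tested (100%), and no such background was computed for shares. In these shares the groups did not overlap either. A two-sided exact permutation test of 2 against 2 libraries cannot give a p below 0.333, and it gave 0.333 for each. The summed level per kilobase of the family was 2633 and 2471 in shctrl and 4918 and 4976 in shUSP2-AS1, which is 1.94-fold higher.

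The FOS family needs a partner to bind DNA, and its members differ in how strongly they activate. FOS, the classical immediate early gene, lies at chr14:75278826-75282230 (ENSG00000170345) on the plus strand. It had normalized read counts of 3484 and 3212 in shctrl and 6535 and 6738 in shUSP2-AS1. The replicates lay close together and the groups far apart, with a log2FC of 0.99 (SE 0.05, limma adjusted p = 1.4e-11). This value sits at the fold threshold, and FOS was called with upper quartile scaling (1.05), without shctrl replicate 1 (1.05) or without shUSP2-AS1 replicate 1 (1.01). FOSB, a close relative of FOS that was taken from the list of other bZIP genes, rose more. Its counts were 1667 and 1654 in shctrl and 4466 and 4473 in shUSP2-AS1, a log2FC of 1.43 (SE 0.05, limma adjusted p = 1.01e-13). The log2 ratio of FOS to FOSB fell by 0.44 between the groups.

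FOSL1, which encodes FRA1 and is often high in invasive epithelial tumour cells, moved the opposite way. It lies at chr11:65892049-65900573 (ENSG00000175592) on the minus strand and had 1177 and 1185 normalized reads in shctrl and 746 and 696 in shUSP2-AS1. The knockdown libraries were both lower than both controls, with a log2FC of -0.71 (SE 0.07, limma adjusted p = 3.95e-08). The log2 ratio of FOS to FOSL1 was 1.57 and 1.44 in shctrl and 3.13 and 3.27 in shUSP2-AS1, a gain of 1.70. FOSL2, which encodes FRA2, lies at chr2:28392448-28417317 (ENSG00000075426) on the plus strand and overlaps FOSL2-AS1 on the opposite strand. Its counts of 6973 and 7397 in shctrl and 8007 and 7766 in shUSP2-AS1 left a small gap between groups, and the log2FC was 0.13 (SE 0.05, limma adjusted p = 0.0147). This gap depends on the scaling. With RLE scaling, which takes the median ratio of the listed genes as its reference, the value was 0.02 (limma adjusted p = 0.739). The listed genes had been selected for a difference, so this does not measure the error of the deposited scaling. In the fit on the deposited scale 99.9% of the tested genes had a larger absolute change. Without shctrl replicate 1 the adjusted p was 0.162, and without shUSP2-AS1 replicate 1 it was 0.0936.

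Per kilobase of gene, the makeup of the FOS family shifted. FOS went from 35.3% ± 1.82 to 47.7% ± 0.990 of the summed level and FOSB from 10.0% ± 0.00294 to 18.4% ± 0.00501 (SD, n = 2 each). FOSL1 went from 21.0% ± 0.219 to 8.74% ± 0.429, and FOSL2 from 33.7% ± 1.60 to 25.2% ± 0.566 (SD, n = 2 each). The shares sum to 100%, so a gain of one gene is a loss of others. The level per kilobase of FOSL2 went from 1003 to 1101 while its share was smaller, whereas that of FOSL1 went from 626 to 382. No share overlapped between the groups (exact permutation p = 0.333 for each, the smallest possible). This is little support, as the groups did not overlap in the levels of 6811 of the 6812 tested genes (100%) either. No such background was computed for shares. The size of the shifts depends on the division by gene length, and the deposited length can exceed that of the transcript expressed. FOSL1 differed by -12.3 percentage points and FOSL2 by -8.49 per kilobase, but by -5.17 and -13.7 without that division. The summed level per kilobase was 2991 and 2967 in shctrl and 4368 and 4374 in shUSP2-AS1, 1.47-fold higher. As the JUN family rose more, the ratio of FOS family to JUN family was 1.14 and 1.20 in shctrl and 0.888 and 0.879 in shUSP2-AS1. Without division by length it was 2.15 and 2.31 against 1.73 and 1.70, so the ratio was lower after knockdown on both scales and passed below 1 only per kilobase.

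**Figure D2:**
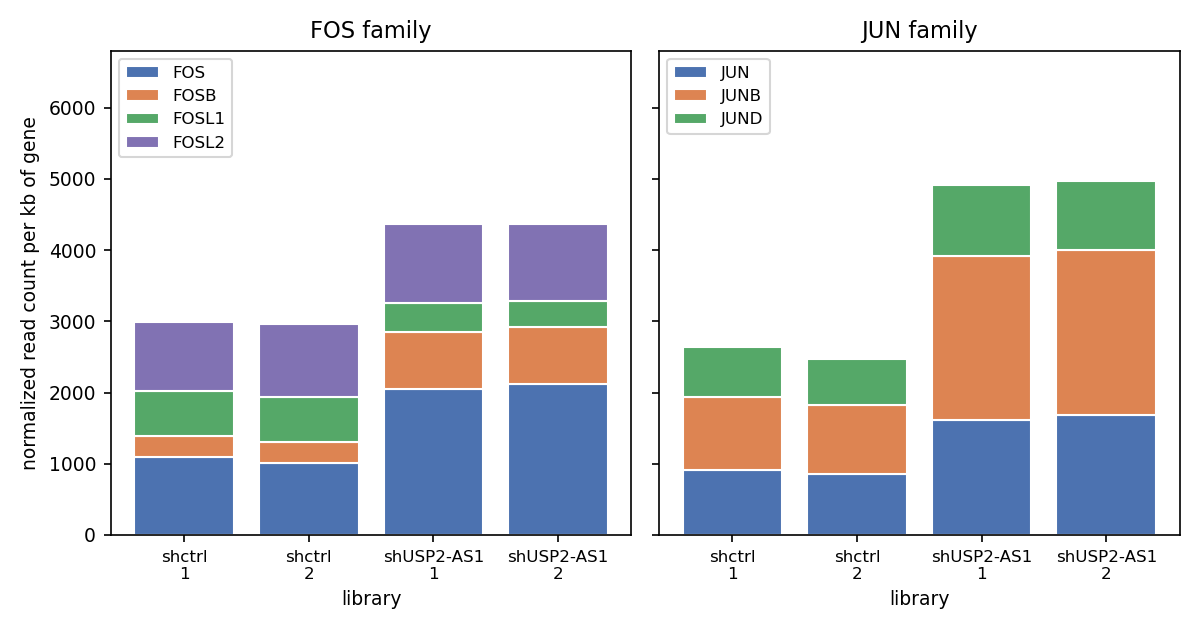
Summed level of the FOS family (left) and the JUN family (right) in each library, in normalized read counts per kilobase of gene, with each gene as one segment of the bar. The FOS family goes from about 2979 to 4371 with a thinner FOSL1 segment, and the JUN family from about 2552 to 4947 with a thicker JUNB segment.

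ATF3 had the largest change of the 9. It encodes a bZIP protein that is induced by many stresses and pairs with JUN proteins or with itself, and it lies at chr1:212565334-212620777 (ENSG00000162772) on the plus strand. Its normalized read counts were 239 and 246 in shctrl and 997 and 1065 in shUSP2-AS1. Both knockdown libraries were about 4 times the controls, with a log2FC of 2.08 (SE 0.09, limma adjusted p = 5.37e-13). Only 6.19% of the tested genes had a larger absolute change, and by size of rise ATF3 ranked 223 of 6812. Relative to JUN, ATF3 gained 1.19 on the log2 scale, from a ratio of -3.64 and -3.51 in shctrl to -2.40 and -2.36 in shUSP2-AS1. Even so, its level per kilobase in shUSP2-AS1 was 255 ± 12.0 (SD, n = 2), below that of every JUN and FOS family gene among the 9.

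MAFF is a small MAF protein, which has a zipper but no activation domain and pairs with CNC factors such as NFE2L2 (NRF2). It lies at chr22:38200767-38216507 (ENSG00000185022) on the plus strand, where PLA2G6, not listed, overlaps it on the opposite strand. Its reads were the fewest of the 9, with 111 in each control library and 45 and 59 after knockdown. As normalized read counts these were 107 and 122 against 47.3 and 51.9, so that both knockdown libraries lay well below both controls. The log2FC was -1.19 (SE 0.20, limma adjusted p = 2.49e-05), with a 95% interval of -1.61 to -0.77. DESeq2 on the recovered reads gave a larger SE, 0.32. MAFK, another small MAF gene, had 1949 and 2094 in shctrl and 2605 and 2748 in shUSP2-AS1, a log2FC of 0.41 (adjusted p = 3.88e-06, limma). The log2 ratio of MAFF to MAFK fell by 1.61. MAFG is not listed.

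EGR1, at chr5:138465479-138469303 (ENSG00000120738) on the plus strand, encodes a zinc finger activator that is rapidly induced by growth factors. Its normalized read counts were 3448 and 3649 in shctrl and 4722 and 4583 in shUSP2-AS1. The groups were apart, but the log2FC of 0.39 (SE 0.05, limma adjusted p = 1.57e-06) was exceeded in size by 82.3% of the tested genes. NAB1 and NAB2, corepressors that bind EGR proteins and hold back their activity, both fell. NAB1 had 885 and 824 in shctrl and 256 and 233 in shUSP2-AS1, a log2FC of -1.80 (SE 0.09, limma adjusted p = 8.2e-12). NAB2 had 330 and 348 against 166 and 192, with a log2FC of -0.92 (SE 0.12, limma adjusted p = 1.42e-06). The log2 ratio of EGR1 to NAB1 therefore rose by 2.20 and that of EGR1 to NAB2 by 1.32. EGR2 and EGR3 are not listed.

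**Figure D3:**
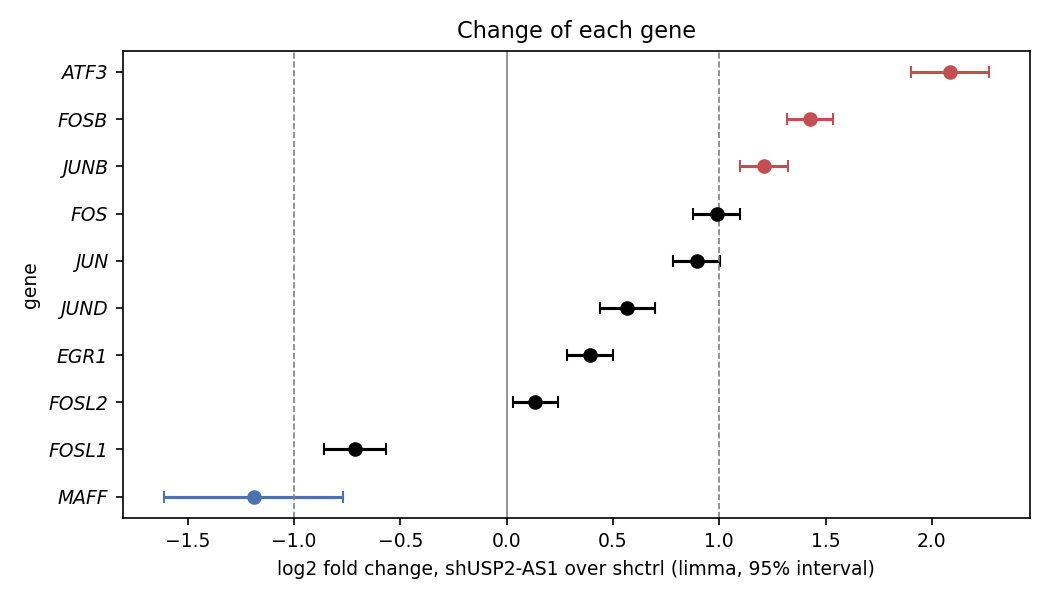
Log2 fold change of each gene, shUSP2-AS1 over shctrl, from limma, with its 95% interval; dashed lines mark -1 and 1 and coloured points were called. Values run from -1.19 for MAFF to 2.08 for ATF3. The intervals of FOS and JUN reach across 1, and that of MAFF, which was called, across -1. Their spread was estimated from genes selected for a difference, so they may be too narrow.

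Levels between genes were compared per kilobase. In shctrl the order was EGR1 (1131), FOS (1051), FOSL2 (1003), JUNB (998), JUN (887), JUND (667), FOSL1 (626), ATF3 (60.0) and MAFF (20.4), in mean normalized read counts per kilobase. Over the 2 libraries FOS overlapped with FOSL2 and FOSL2 with JUNB, while the other neighbours did not overlap. In shUSP2-AS1 the order was JUNB (2308), FOS (2083), JUN (1649), EGR1 (1483), FOSL2 (1101), JUND (989), FOSL1 (382), ATF3 (255) and MAFF (8.85), with no overlap between neighbours. Per kilobase JUNB thus went to the first place from a group of 3 genes that overlapped in shctrl, and EGR1 from the first to the fourth. This order depends on the division by gene length. Without it FOSL2 had the highest mean in both groups, 7185 in shctrl and 7886 in shUSP2-AS1. JUNB, at 1826 and 4224, was then below FOS, JUN and EGR1 in both.

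The lists around these genes were summarised by counts, to be read against the shares over all 6812 tested genes, of which 50.6% were higher and 49.4% lower by adjusted p, 16.1% were called higher and 13.5% lower, and the median log2FC was 0.19. As changes near 0 are scarce among the listed genes, a median here depends in part on the split of directions. Of 32 other bZIP genes 15 are listed, and 10 rose and 5 fell, with a median log2FC of 0.38. None was called lower and 4 were called higher, among them FOSB, BATF2 and MAF, of which BATF2 and MAF were named after their values were seen. The shares over all tested genes are 16.1% called higher and 13.5% lower. MAF had 13 and 4 reads in shctrl and 152 and 200 in shUSP2-AS1. BATF2 had 41 and 32 against 118 and 158 reads. BACH1, a repressor that pairs with small MAF proteins, had a log2FC of 0.68, and CEBPA, a factor of lung and liver differentiation, of 0.66. NFIL3, a bZIP repressor, had -0.64, CEBPG -0.42 and ATF1, a relative of CREB, -0.43. ATF2, ATF7, JDP2 and BATF3 are not listed.

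Of 32 other immediate early and early response genes 20 are listed. Here 16 rose and 4 fell, with a median log2FC of 0.69, and 7 were called higher and none lower. Over all tested genes the median was 0.19, with 50.6% higher, 16.1% called higher and 13.5% called lower. RHOB, a small GTPase gene induced by growth factors and stress, went from 3751 and 3605 in shctrl to 12571 and 13335 in shUSP2-AS1, a log2FC of 1.82 (SE 0.05, limma adjusted p = 5.69e-15). BTG2, an antiproliferative gene and known p53 target, had 1.64 and KLF2, a zinc finger factor, 1.39. In the other direction were IER5L (-0.65), GADD45B (-0.53) and KLF10 (-0.39), the last a gene induced early by TGF-beta.

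Fewer genes of the cascades upstream of AP-1 are listed, 11 of 34. Of these 6 rose and 5 fell, with 0 called higher and 1 called lower by limma, and the median log2 fold change was 0.30. All 11 passed an adjusted p of 0.05, like the table they come from, and the split of directions is near the 50.6% and 49.4% of all tested genes, of which 16.1% were called higher and 13.5% lower. MAPK11, a p38 kinase, had a log2FC of 0.98, and MAP3K1, a kinase above JNK, of 0.45. SRF had 820 and 878 in shctrl and 1229 and 1246 in shUSP2-AS1, a log2FC of 0.54 (SE 0.07, limma adjusted p = 7.94e-07). RPS6KA5, a nuclear kinase below ERK and p38, was the gene called lower (-1.10), while MAP2K6, which activates p38, had -0.88 and ELK1, a partner of SRF at immediate early promoters, -0.71.

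Feedback inhibitors were listed for 6 of 20 names, with 4 higher and 2 lower and 1 called in each direction, against 16.1% and 13.5% called over all tested genes. DUSP10, a phosphatase of JNK and p38, was called higher, at 97.6 and 98.9 in shctrl and 232 and 189 in shUSP2-AS1 (log2FC 1.09). DUSP1, itself an immediate early gene and an inhibitor of MAP kinases, had 7733 and 7696 against 11369 and 12218, a log2FC of 0.61. SPRED3 had 0.77 and ERRFI1, an inhibitor of the EGF receptor, 0.22. No other DUSP gene of the list has a row. NAB1, described above, was the gene called lower.

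Genes with textbook AP-1 dependence rose and fell about as often as all tested genes did. A larger part of them was called, and their median had the opposite sign. Of 32 names 19 are listed, of which 9 rose and 10 fell, with 5 called higher and 4 lower and a median log2FC of -0.41. Over all tested genes 50.6% were higher and 49.4% lower, 16.1% and 13.5% were called, and the median was 0.19. TNC, the matrix protein tenascin C, had 199 and 180.2 in shctrl and 901 and 865 in shUSP2-AS1, a log2FC of 2.21 (SE 0.10, limma adjusted p = 8.47e-13). CXCL8, which encodes interleukin 8, had 1013 and 1010 against 423 and 438, a log2FC of -1.23 (SE 0.08, limma adjusted p = 1.07e-10). HMOX1, which encodes heme oxygenase 1, had -1.18 and KRT18, a keratin of simple epithelia, -1.05. Some of these genes have regulators other than AP-1.

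**Figure D4:**
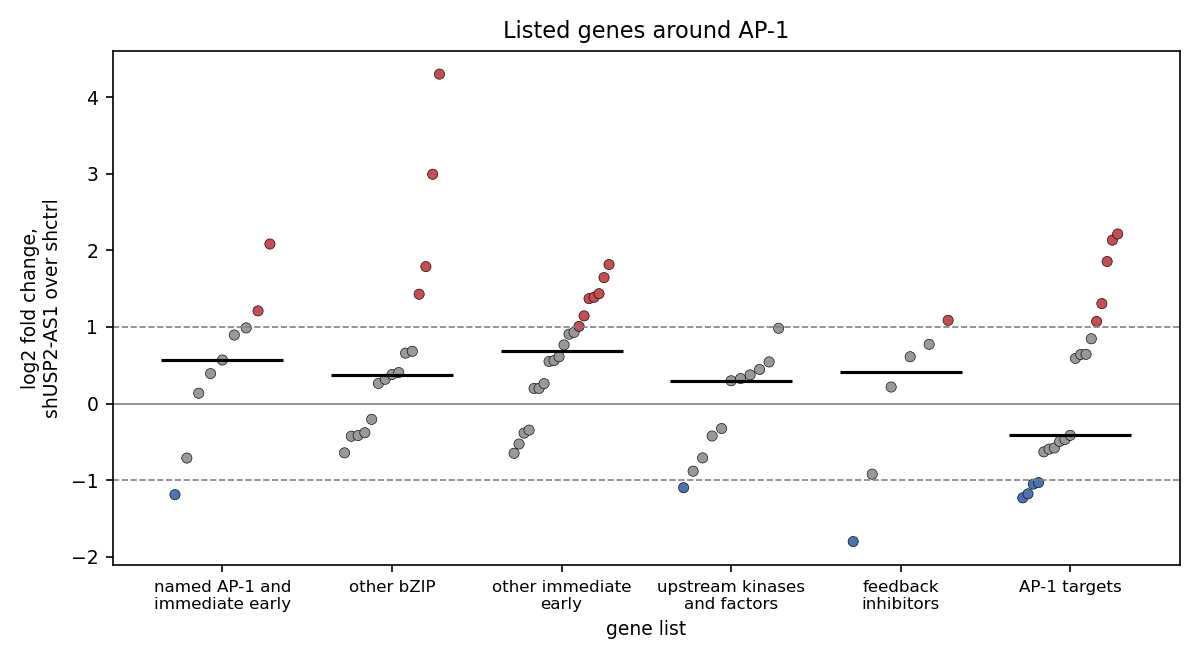
Log2 fold change, shUSP2-AS1 over shctrl, of every listed gene in 6 lists (points, red called higher, blue called lower, grey not called), with a bar at the median of each list. The medians run from -0.41 for AP-1 targets to 0.69 for other immediate early genes, and they depend in part on the split of directions.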

How the data were processed

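A549 RNA-seq libraries (2 shctrl, 2 shUSP2-AS1) were poly(A)-selected. Per the submitters' processing notes, HISAT2 (2.0.5), featureCounts (1.5.0-p3), DESeq2 (1.20.0) and hg38 were used. The signal deposited for each gene is its normalized read count, made by the authors with one size factor per library, and gene length is given in bases. Group means and the columns of the comparison made by the authors (log2 ratio of groups, p-value, adjusted p-value) were deposited too and not used, except to test that 0 of the 6828 genes listed exceed an adjusted p of 0.05. No columns of other samples were present. Columns headed scr were taken as shctrl and columns headed sh216 as shUSP2-AS1, from the name of the table, and replicates from the column numbers.

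Genes averaging 10 or more (6812) were fitted as log2(value + 1) in limma (3.58.1, R 4.3.3), with Benjamini-Hochberg adjustment over all of them. A fold change on this scale understates the change of low genes. Whole reads were recovered for 100% of values (relative tolerance 0.0001) and used for edgeR (4.0.16) and DESeq2 (1.42.0) as alternatives. These total reads cover the listed genes only, and a gene with few reads, such as MAFF, is measured less precisely. For every member with a row the SE by DESeq2 was larger than that by limma, as in ATF3 with 0.13 against 0.09. The methods were tested on simulated data in which 200 genes were changed and the rest were not. The listed genes had all been selected for a difference, so that test does not cover this setting. A planned comparison of protein sequences was not made, as no protein table was used here, and the annotation release is not given in the sources used here. The members and lists were chosen with earlier results of these data known, so no set test was run. Named genes are the members, USP2-AS1 and, in each list, up to 3 genes per direction with the largest change and a mean of at least 100, with the named FOSB, MAFK, EGR and DUSP genes. Some genes that this rule would name are not reported here. Of the reference genes, GAPDH had a log2 fold change of -0.17 and ACTB of 0.41. Of 13 mitochondrial protein genes, 6 are listed, with log2 fold changes of -0.33 to 0.67.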

Additional observations from a re-analysis of the deposited data

How the results depend on the processing

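Over 13 alternatives, the log2 fold changes of the 9 genes kept their direction in all 117 values, and whether they were called (adjusted p and fold together) in 114. The other 3 were the calls of FOS described above. By adjusted p alone FOSL2 no longer passed 0.05 under 5 alternatives, namely RLE scaling (0.739), DESeq2 (0.748), the replicate block (0.0525), and without shctrl replicate 1 (0.162) or shUSP2-AS1 replicate 1 (0.0936). The number of genes of the set called higher was 2 or 3 under every alternative with a fold threshold, and without one it was 7, with 2 lower. When limma tested each change against 2-fold, 2 were higher and 0 lower, since MAFF no longer passed. Over all tested genes this test called 541 higher and 523 lower in place of 1098 and 922, and an adjusted p alone 3449 and 3362. RLE scaling moved the median of all genes by -0.12 and gave 934 higher and 1143 lower, the DESeq2 count test 942 and 1140, the upper quartile 1204 and 830, and edgeR 1085 and 940. The FOSL2 log2 fold change was 0.02 with RLE scaling and with DESeq2, and its adjusted p ranged from 0.00132 to 0.748. Without division by gene length, the shift in share of the family was 8.62 percentage points for FOS, 10.3 for FOSB, -5.17 for FOSL1, -13.7 for FOSL2, 6.29 for JUNB and -4.85 for JUND, as long genes then count for more. The USP2-AS1 log2 fold change lay between -2.99 and -1.78 with 1 library left out, and it has no value with at least 10 reads required in every library. A replicate block in the model called 1098 higher and 922 lower, the counts without it. The replicate differences of the groups had a correlation of -0.04 across genes, so no shift shared by libraries of one number was seen. Whether such libraries were prepared together is not given in the sources used here. The reads cover the listed genes only, and with 2 libraries a group no exact test of a single value can pass 0.05.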

Other observations

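The table has a column of protein families, in which 16 tested genes are marked as bZIP or Jun. Of these, 4 were called higher and 1 lower, with a median log2 fold change of 0.31, against 16.1% and 13.5% of all tested genes. The called genes, ATF3, JUNB, BATF2, MAF and MAFF, are all reported above, so this count adds no further called gene. The column marks JUN, JUNB, FOS, ATF3 and MAFF but not FOSL1, FOSL2, FOSB, JUND or MAFK, so it leaves out part of the family. CREB3L4 and CREBL2, in no list used here and named after their values were seen, had log2 fold changes of -0.73 and 0.31.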
